A study of Mus musculus with 2 samples.

Results

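Potassium channels set the resting potential of neurons, shape their spikes and limit their firing. Pore subunits of the voltage-gated (Kv), calcium- or sodium-activated, inward rectifier and two-pore families form the channels, and auxiliary subunits change their gating or their traffic to the membrane. In the olfactory bulb they are known for their part in the firing of mitral and tufted cells, the glutamatergic neurons that send axons to the cortex, and of granule and periglomerular cells, the GABAergic interneurons that inhibit them. Potassium channel genes were described here in single nuclei of the mouse bulb, and the comparisons ask how their transcripts differed between projection neurons labelled from different targets, between projection neurons and interneurons, and between neurons and other nuclei.

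The genes were all rows whose symbol begins with Kcn, followed by further letters and a final number. Of 31055 rows, 92 matched, and 67 of these had 10 or more unique molecular identifiers (UMIs, counts of single captured RNA molecules) when the quality-filtered nuclei of both libraries were pooled. Those 67 are the genes described below. With 10 UMIs asked of each library separately, 49 genes remain. Outside the minimum were 25 genes, of which 9 had no UMI. The lowest gene inside had 10 UMIs and the highest outside had 8.

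Both libraries came from the olfactory bulbs of adult mice with the strain given as WT, injected with retroAAV-CAG-H2B-GFP, a virus taken up by axon endings that carries a nuclear green fluorescent protein. The anterior olfactory nucleus (AON) was the injected site for 1 library and the posterior piriform cortex (pPCx) for the other. The CAG promoter of the virus is active in most cell types, so the label does not select neurons. Nuclei were sorted for green fluorescence and sequenced on the 10x platform, which counts transcripts by their 3′ ends. Per the study's methods the mice were C57Bl/6 and the pPCx library came from 1 female. The AON library is not described there and is known from its labels. It held 2 UMIs of *Xist*, which females transcribe, and 423 of the Y-linked *Eif2s3y*, against 1782 and 0 in the pPCx library. The injected site therefore cannot be told apart from the animal, its sex or the library.

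Nuclei with at least 1000 genes were kept, 102 of 188 in the AON library and 63 of 74 in the pPCx library, and no barcode was shared. Projection neurons (PNs) had more UMIs of *Slc17a7*, *Slc17a6*, *Tbx21* and *Cdhr1* together than of *Gad1*, *Gad2* and *Slc32a1* together. GABAergic nuclei showed the reverse and had 3 or more UMIs of *Gad1*, *Gad2* and *Slc32a1* together. There were 25 PNs, 47 GABAergic and 30 remaining nuclei in the AON library, against 59, 2 and 2 in the pPCx library. Median depth was 38129 UMIs per nucleus in AON PNs, 34306 in pPCx PNs, 26129 in AON GABAergic nuclei and 14336 in the remaining AON nuclei. A single nucleus held 24.6% of all AON PN UMIs, and 7 of the 25 AON PNs were called on an excess of 1 marker UMI. With 1 library per site there was no test: intervals are exact 95% intervals that cover counting error only, and nuclei are not replicates.

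The PN and GABAergic marker lists include the genes of the class rule, so their sums were in part fixed by it. The 7 PN markers summed to 599 counts per 1000000 UMIs (CPM) in AON PNs and 619 CPM in pPCx PNs, against 28.3 CPM in AON GABAergic nuclei and 8.34 CPM in the remaining nuclei, and the 6 GABAergic markers to 57.3, 34.4, 5246 and 771 CPM in the same order. Outside the rule, *Eomes* stood at 62.6 CPM in AON PNs, 52.4 CPM in pPCx PNs and 0.787 CPM in AON GABAergic nuclei. In the same order *Lhx1* stood at 5.37, 1.72 and 0 CPM, and *Thy1* differed little, at 30.4, 19.8 and 19.7 CPM. *Meis2* stood at 30.4, 8.59 and 3671 CPM, *Dlx1* at 1.79, 0.859 and 73.9 CPM, and *Dlx6os1* at 1.79, 0 and 638 CPM. All 6 astrocyte and all 6 oligodendrocyte markers were found in the remaining nuclei, at 4442 and 5859 CPM. There, 19 nuclei had more astrocyte than oligodendrocyte marker UMIs and 9 the opposite. By neuronal markers, 13 of the same 30 nuclei had 1 or 2 inhibitory marker UMIs, above their excitatory marker UMIs but too few to be called GABAergic. AON and pPCx PNs differed in some of these lists. Astrocyte markers stood at 387 and 217 CPM and oligodendrocyte markers at 109 and 59.7 CPM. The 5 cortical glutamatergic markers stood at 629 and 147 CPM, of which *Cux2* alone gave 536 and 107 CPM while *Neurod6* had 1 UMI in each. The study names *Rorb*, here at 68.9 and 15.0 CPM, as a gene of an external tufted cell type. It also places *Cux2* among the regulators of tufted cell types, so these genes are not particular to cortical neurons. The mix of mitral and tufted cells in each library was not tested. Markers of oligodendrocyte precursors stood at 5.37 and 256 CPM, and the whole of the pPCx value was *Vcan*, with 596 UMIs against 4 in AON PNs, as *Pdgfra* and *Cspg4* were at 0 in pPCx PNs. Their part in the differences between the libraries was not tested.

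Potassium channel transcripts made up 1.40% of all UMIs in AON PNs, 0.870% in pPCx PNs, 2.31% in AON GABAergic nuclei and 0.485% in the remaining AON nuclei. The interneurons thus held the largest share of the 4 classes and the remaining nuclei the smallest. A median PN carried UMIs of 28 of the 67 genes in the AON library and of 30 in the pPCx library, a GABAergic nucleus of 31, and a remaining nucleus of 13. UMIs per gene went with the length of the gene, as Pearson's r between log level and log span was 0.58 in AON PNs, 0.65 in pPCx PNs and 0.67 in AON GABAergic nuclei across the 67 genes. These points share libraries and are given as a description. Gene spans ran from 4.789 to 1135 kb, and levels are compared below between classes for each gene, not between genes.

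**Figure D1:**
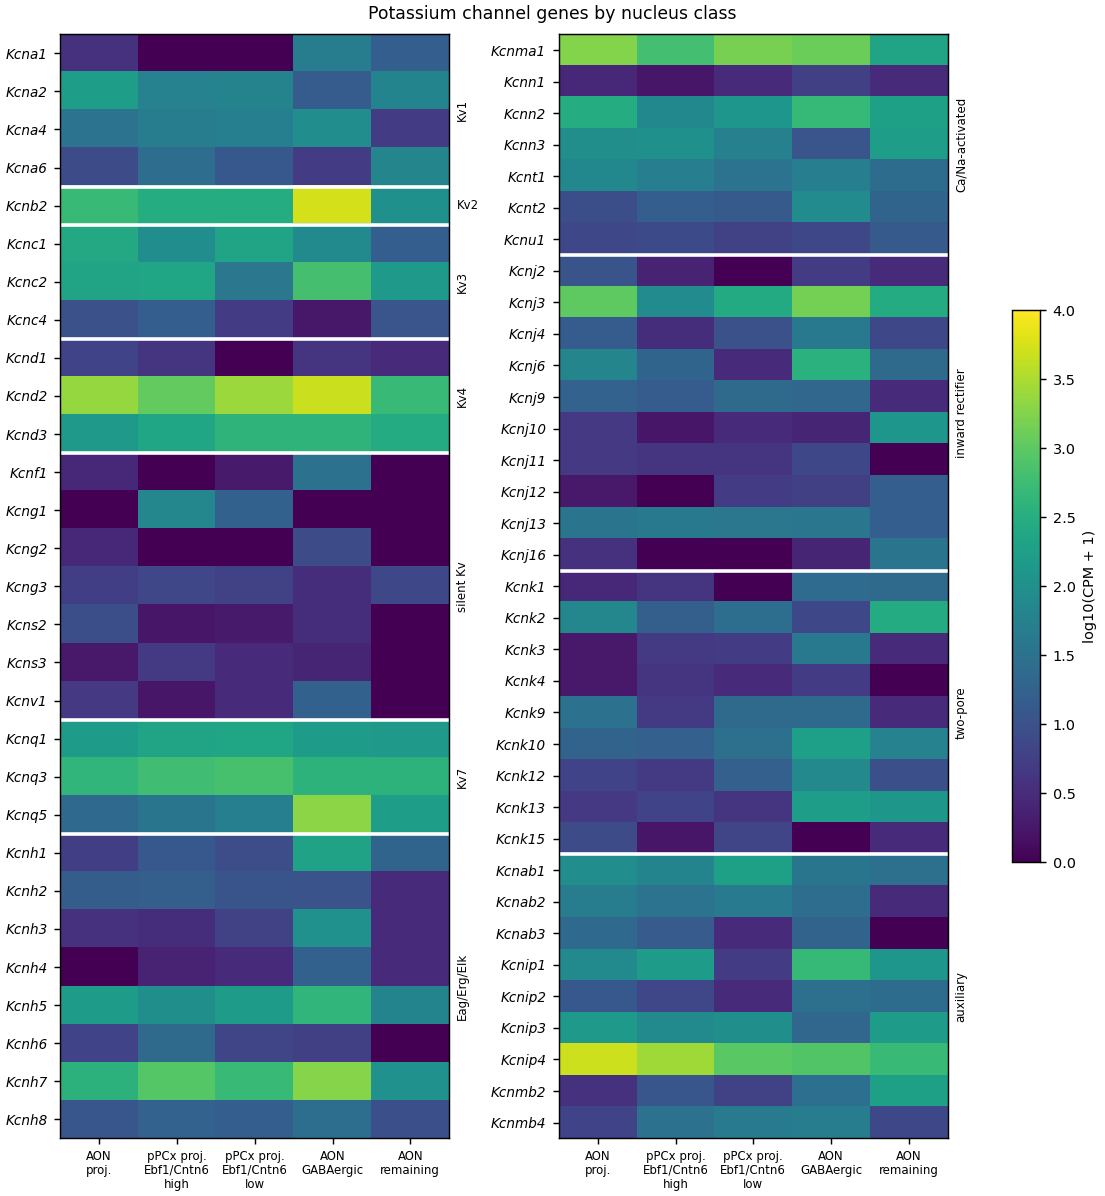
Level of 64 of the 67 potassium channel genes (rows, grouped by family) in 5 nucleus classes (columns), as log10 of CPM + 1. The pPCx projection neurons are drawn in 2 groups by their *Ebf1* and *Cntn6* level. *Kcng1* has colour in the pPCx columns alone, *Kcnq5* and *Kcnb2* are brightest in the GABAergic column, and *Kcnj10* and *Kcnj16* in the remaining nuclei.

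Between PNs of both libraries, *Kcnj3* and *Kcnj6*, which encode subunits of G protein-gated inward rectifiers, were higher in the AON library, and the silent Kv subunit gene *Kcng1* and the β subunit gene *Kcnmb4* in the pPCx library. Of 46 genes with 20 or more UMIs in the PNs together, 10 (21.7%) were at least 2-fold higher in AON PNs, where 6.66% of all 11167 genes were, and 7 (15.2%) were at least 2-fold higher in pPCx PNs, where 9.81% of all genes were. The other 29 were under 2-fold. The median log2 ratio of AON over pPCx was 0.04 for the 46 genes and −0.06 for all genes.

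*Kcnj3* encodes GIRK1, a subunit of the inward rectifiers that open when G protein-coupled receptors such as GABA-B release G protein βγ. It had 1119 UMIs in AON PNs and 397 in pPCx PNs, or 1001 and 171 CPM, which is 5.87-fold higher (5.23 to 6.60) in the AON library. The log2 ratio was 2.55 as summed, 3.18 without nuclei over 3 times the median depth and 4.34 with equal weight per nucleus. It was 2.29 with 2000 or more genes per nucleus and 2.41 under a stricter marker rule. Shallow AON PNs of 3291, 5318, 5424 and 6480 UMIs stood at 15193, 12975, 10324.5 and 5864 CPM, and others of 4505 and 4967 UMIs at 0 and 403 CPM. Single AON PNs ran from 0 through a median of 560 to 15193 CPM, and pPCx PNs from 0 through 23.5 to 2018 CPM, so the nuclei overlapped. UMIs were found in 21 of 25 AON and 33 of 59 pPCx PNs. *Kcnj6*, which encodes the partner subunit GIRK2, had 72 UMIs in 13 AON PNs and 26 UMIs in 9 pPCx PNs, 5.77-fold higher (3.64 to 9.42). One nucleus held 65.4% of its pPCx UMIs. *Kcnj9*, the gene of GIRK3, gave 17.0 CPM in AON and 18.0 CPM in pPCx PNs, within counting error, so the GIRK genes did not share one pattern. *Kcnj4*, a strong inward rectifier of the Kir2 group, was 2.60-fold higher (1.14 to 6.09) in AON PNs on 15 and 12 UMIs.

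In the fixed list of 27 partner genes (auxiliary, scaffold and G protein signalling proteins that bind potassium channels or GABA-B receptors), 20 had enough UMIs for this comparison, and 1 (5.0%, against 6.66% of all genes) was past 2-fold towards AON and 2 (10.0%, against 9.81%) towards pPCx PNs. *Kctd16*, an auxiliary subunit of GABA-B receptors, was the one higher in AON PNs, at 146 against 33 UMIs or 9.22-fold (6.28 to 13.9). The receptor genes *Gabbr1* and *Gabbr2* were under 2-fold, with log2 ratios of 0.05 and −0.44. *Lgi1*, a secreted protein linked to Kv1 channels, and *Jph4*, a junctophilin that couples channels to calcium stores, were higher in pPCx PNs, by log2 ratios of −1.24 and −1.55.

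Calcium-activated and two-pore channels made up most of the other AON-higher pore genes. *Kcnn2*, the SK2 channel that follows spikes with a hyperpolarization, had 330 UMIs in AON and 221 in pPCx PNs, or 295 and 94.9 CPM, 3.11-fold higher (2.62 to 3.71). Of the AON UMIs, 47.0% came from the deepest nucleus. Without nuclei over 3 times the median depth the log2 ratio was 1.18 in place of 1.64, and with equal weight per nucleus it was 2.82. The median nucleus had 140 CPM in the AON and 60.0 CPM in the pPCx library. *Kcnk2*, the stretch- and lipid-sensitive two-pore channel TREK-1, stood at 70.7 and 20.6 CPM, 3.43-fold higher (2.37 to 5.02). It was higher still in the remaining AON nuclei, at 286 CPM, and the summed astrocyte and oligodendrocyte markers given above also stood higher in AON PNs, though not each of them: *Slc4a4* was at 181 and 12.5 CPM in AON and pPCx PNs, *Slc1a2* at 132 and 200 CPM. Their part in the *Kcnk2* difference was not tested. *Kcnk9*, the leak channel TASK-3, was 2.51-fold higher (1.49 to 4.26), and its log2 ratio of 1.33 fell to 0.96 with equal weight per nucleus.

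Among Kv genes, *Kcna2* was higher in AON PNs and *Kcnd3* in pPCx PNs. *Kcna2* encodes Kv1.2, a low-threshold channel of axons. It had 192 and 139 UMIs, or 172 and 59.7 CPM, 2.88-fold higher (2.30 to 3.61) in the AON library, with median nuclei at 128 and 45.3 CPM. *Kcnd3* encodes Kv4.3, which carries the fast inactivating A-type current. It had 160 UMIs in 13 of 25 AON PNs and 717 UMIs in 57 of 59 pPCx PNs, or 143 and 308 CPM, 2.15-fold higher (1.81 to 2.57) in pPCx PNs, with median nuclei at 19.9 and 238 CPM. Its close relative *Kcnd2* was at 2365 CPM in AON and 1715 CPM in pPCx PNs, under 2-fold.

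*Kcng1* encodes Kv6.1, an electrically silent subunit that forms no channel by itself and alters Kv2 channels when it joins them. It lies on chromosome 2 from 168260117 to 168281736 (GRCm38, GENCODE M21). It had 0 UMIs in 25 AON PNs and 109 UMIs in 39 of 59 pPCx PNs, at least 17.4-fold higher in pPCx PNs against a floor of 3 UMIs over the class. No *Kcng1* UMI was found in 47 AON GABAergic nuclei or in the 30 remaining AON nuclei. As limits on the share of nuclei with a UMI, not on nuclei that express the gene, 0 of 25 PNs allows up to 12% and 0 of 47 GABAergic nuclei up to 6.38%. The gene passed both UMI minima through the pPCx library only, so its difference from AON PNs is a description, and it is not among the 49 genes with 10 UMIs in each library. Outside the filtered nuclei, 1 AON barcode with under 1000 genes held 3 *Kcng1* UMIs. *Kcnb2* (Kv2.2), a channel it can join, was present in both, at 493 CPM in AON and 298 CPM in pPCx PNs. Its log2 ratio was 0.73 as summed, under 2-fold, and 1.14 with equal weight per nucleus.

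*Kcnmb4*, a β subunit that slows the large-conductance calcium-activated BK channel, had 6 UMIs in 3 AON PNs and 86 UMIs in 29 pPCx PNs, 6.88-fold higher (3.03 to 19.3) in pPCx PNs. The gene of the BK pore, *Kcnma1*, was under 2-fold in the other direction by summed UMIs. It had 1996 and 2392 UMIs, or 1786 and 1027 CPM, 1.74-fold higher (1.64 to 1.85) in AON PNs, with UMIs in 24 of 25 and 59 of 59 nuclei, and its log2 ratio of 0.80 was 1.15 with equal weight per nucleus. *Kcnmb4*, *Kcnd3*, *Kcnip1* and *Kcnh1* are among the genes that overlap a gene on the other strand, and the strand setting of the counting is not given in the sources used here.

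*Kcnip4*, one of the calcium-binding KChIP subunits of Kv4 channels, had 5457 UMIs in AON and 4407 in pPCx PNs, or 4883 and 1893 CPM, 2.58-fold higher (2.48 to 2.69) in AON PNs. Its counting interval was narrow, but the nuclei were not uniform: 5 of 25 AON PNs had no UMI, the median was 2826 CPM and the highest 20129 CPM, while every pPCx PN had UMIs around a median of 2013 CPM. With equal weight per nucleus the log2 ratio was 0.70 in place of 1.37, under 2-fold. *Kcnip2* (log2 ratio 1.42) and *Kcnab3* (1.45), a β subunit of Kv1 channels, were also past 2-fold towards AON PNs, on 13 and 10 and on 25 and 19 UMIs.

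The lesser pPCx-higher genes rested on few AON UMIs. *Kcnh6*, an Erg channel, had 6 and 36 UMIs, 2.88-fold higher (1.20 to 8.36). *Kcna6*, or Kv1.6, had 8 and 46, 2.76-fold higher (1.29 to 6.77), and its direction turned with equal weight per nucleus, at a log2 ratio of 0.10. The intervals of *Kcnh1* (Eag1, 5 and 23 UMIs) and *Kcnmb2* (3 and 19 UMIs) included no difference. *Kcnq3*, a subunit of the M current that restrains repeated firing, was 1.47-fold higher (1.33 to 1.63) in pPCx PNs. As 69.4% of its AON UMIs came from the deepest nucleus, the log2 ratio went from −0.55 to −1.69 without nuclei of over 3 times the median depth. Its UMIs lay in 12 of 25 AON and 58 of 59 pPCx PNs. *Kcnh7* (Erg3), at 373 and 719 CPM, was 1.93-fold higher (1.73 to 2.15) in pPCx PNs.

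**Figure D2:**
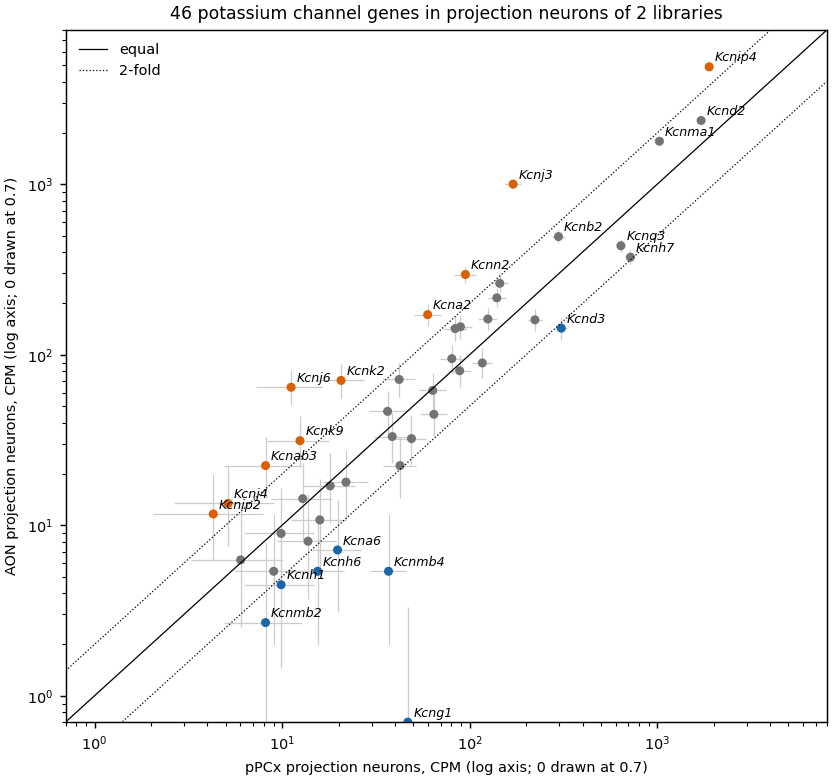
CPM of 46 potassium channel genes in pPCx (x axis) and AON (y axis) projection neurons, both on log axes, with exact 95% Poisson intervals as grey lines. Orange genes are at least 2-fold higher in the AON library, blue genes in the pPCx library, and the dotted lines mark 2-fold. *Kcnj3* (171 and 1001 CPM) lies far above the diagonal and *Kcng1* (46.8 and 0 CPM) on the lower edge.

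The pPCx PNs fell into a pair of groups by their *Ebf1* and *Cntn6* level. Of 59 pPCx PNs, 37 had over 1000 CPM of *Ebf1* and *Cntn6* together and 22 had less, with no nucleus between 100 and 1433 CPM. Only 1 of the 25 AON PNs was in the high group. Within the pPCx library, 41 genes had 20 or more UMIs, and 8 (19.5%) were at least 2-fold higher in high nuclei against 10.2% of all 9679 genes, while 7 (17.1%) were at least 2-fold higher in low nuclei against 5.58% of all genes. The split used no potassium channel gene. However, the study lists *Ebf1*, *Cntn6* and *Kcng1* among the specific genes of its mitral cell type M1. *Kcng1* was therefore not independent of the split.

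*Kcnip1* showed the widest gap. This KChIP gene had 202 UMIs in 35 of 37 high nuclei and 4 UMIs in 4 of 22 low nuclei, or 155 and 3.90 CPM, 39.7-fold higher (15.3 to 147) in the high group. *Kcnip4* followed in the same direction, at 2642 and 940 CPM, 2.81-fold higher (2.62 to 3.02). *Kcnc2*, the Kv3.2 channel of fast-spiking neurons, was 5.94-fold higher (4.22 to 8.56) in high nuclei by summed UMIs, at 220 and 37.1 CPM, though with equal weight per nucleus its log2 ratio was 1.04 in place of 2.55. Its relative *Kcnc1* (Kv3.1) went the other way, at 89.8 CPM in high and 215 CPM in low nuclei, 2.39-fold (1.90 to 3.02). Members of the Kv3 family therefore differed in opposite directions within the same library.

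*Kcng1* had 92 UMIs in 31 of 37 high nuclei and 17 UMIs in 8 of 22 low nuclei, 4.25-fold higher (2.52 to 7.62). Low nuclei thus held it too, at 16.6 CPM, where AON PNs had none. Thinned to 3000 UMIs per nucleus, the expected share of nuclei with a *Kcng1* UMI was 20.1% in the high and 4.55% in the low group. *Kcnj6* had 24 and 2 UMIs, but 70.8% of the high UMIs came from 1 nucleus. *Kcnh6*, *Kcnc4* and *Kcna6* were the other genes higher in the high group, on 30 and 6, 19 and 4, and 34 and 12 UMIs.

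Low nuclei were higher in the GIRK1, BK and Kv4.2 genes. *Kcnj3* had 109 UMIs in 12 of 37 high nuclei and 288 UMIs in 21 of 22 low nuclei, 3.36-fold higher (2.69 to 4.23) in the low group. A single high nucleus of 42618 UMIs stood at 2018 CPM, where the high group stood at 83.6 CPM. One nucleus held 46.2% of the low UMIs, and without nuclei over 3 times the median depth the log2 ratio was −1.11 in place of −1.74. *Kcnma1* was 2.36-fold higher (2.17 to 2.57) in low nuclei, at 1517 against 642 CPM. *Kcnd2* was 2.28-fold higher (2.14 to 2.44) by summed UMIs, yet its log2 ratio of −1.19 was −0.78 without the deepest nucleus. *Kcnab1* (Kvβ1), *Kcnk9* and *Kcnk12* were also higher in low nuclei, by 2.95-fold (2.26 to 3.87), 6.11-fold (2.28 to 20.5) and 4.07-fold (1.42 to 14.2). Of the partner genes, 20 had enough UMIs. Of these, 5 were past 2-fold towards high nuclei, against 10.2% of all genes, and 3 towards low nuclei, against 5.58%. Among them were *Lgi1*, with 63 and 3 UMIs, and *Kctd8*, another GABA-B auxiliary subunit, with 45 and 187. *Kctd16* is counted among the 5, but its interval included no difference (0.941 to 5.13), on 24 and 9 UMIs.

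When AON and pPCx PNs were compared within the nuclei under 1000 CPM of *Ebf1* and *Cntn6*, 24 and 22 nuclei, 38 genes had enough UMIs. Of these, 10 were at least 2-fold higher in AON PNs, against 7.84% of all 8958 genes, and 4 in pPCx PNs, against 5.59%. The 10 included 7 of those named above for all PNs. *Kcnj3* remained higher in the AON library, at 847 against 281 CPM or 3.02-fold (2.64 to 3.46), as did *Kcna2* (2.99-fold, 2.23 to 4.05), *Kcnn2* (2.39-fold, 1.94 to 2.96) and *Kcnk2* (2.78-fold, 1.78 to 4.44). *Kcnip4* stood at 5234 and 940 CPM, 5.57-fold apart (5.20 to 5.97). *Kcnip1* and *Kcnc2*, under 2-fold between all PNs, differed here by summed UMIs in favour of AON nuclei. The fold was 12.1 (4.42 to 46.0) for *Kcnip1* and 5.03 (3.54 to 7.32) for *Kcnc2*. A single AON nucleus of 39459 UMIs stood at 912 CPM of *Kcnip1* and 3269 CPM of *Kcnc2*, where its class stood at 47.1 and 186 CPM. *Kcnip1* UMIs were found in 6 of all 25 AON PNs. *Kcnd3* and *Kcnmb4* remained higher in pPCx PNs, by 2.71-fold (2.24 to 3.28) and 7.79-fold (3.32 to 22.3). *Kcnk9*, *Kcnj4* and *Kcnh6* were under 2-fold there, with log2 ratios of 0.39, 0.59 and −0.26.

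**Figure D3:**
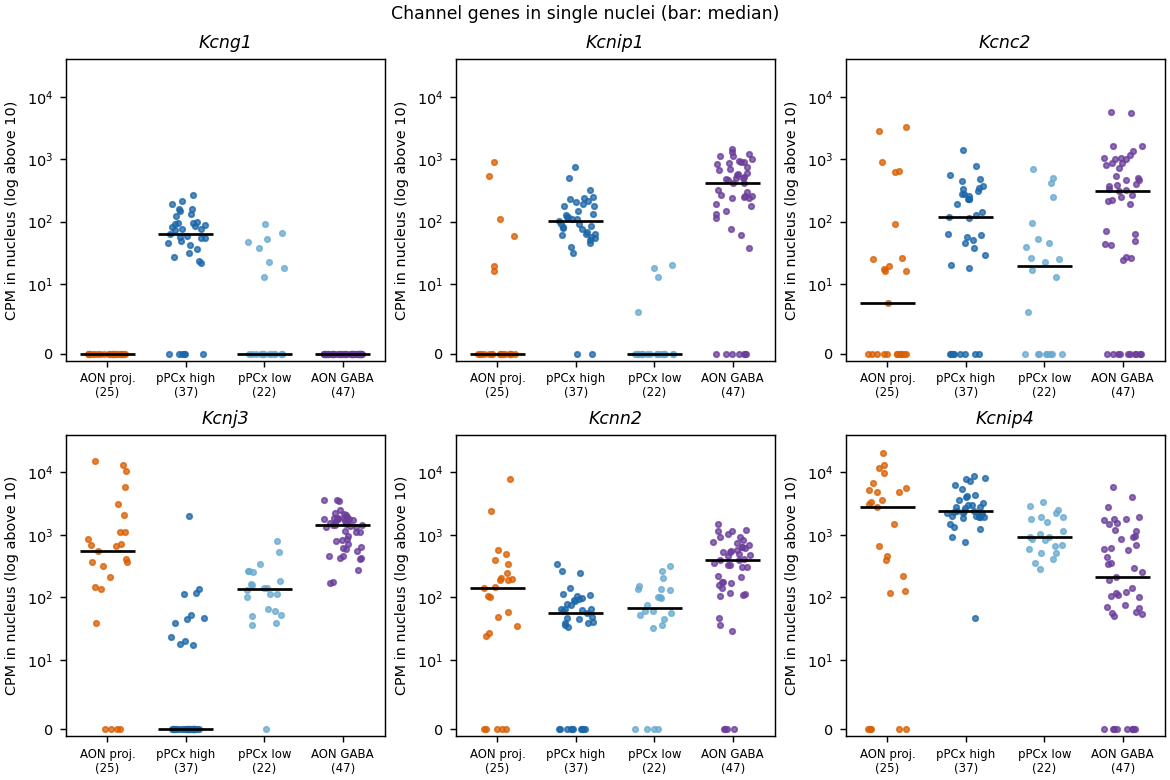
CPM of 6 potassium channel genes in single nuclei (points; bar, median), on an axis that is logarithmic above 10 CPM, for AON projection neurons, pPCx projection neurons high or low in *Ebf1* and *Cntn6*, and AON GABAergic nuclei, with the number of nuclei in brackets. *Kcng1* is at 0 in every AON nucleus drawn, *Kcnip1* is in 35 of 37 high and 4 of 22 low pPCx nuclei, and the AON projection neurons spread widely for *Kcnj3*, from 0 to 15193 CPM.

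EBF1 is a transcription factor that binds palindromic sites with the core CCCNNGGG, and the stretches before the start sites of the genes that differed between high and low nuclei were searched for these letters. RefSeq promoters of GRCm38.p6 were used, taking the 250 bases upstream of each listed start, and the core reads the same on both strands. Of 32851 promoters of all genes, 11.8% held it, as did 13 of 70 promoters (18.6%) of 47 potassium channel genes. Of the genes higher in high nuclei, 7 had 14 listed promoters, and 4 of the 14 held a match, in 4 genes. Of those higher in low nuclei, 6 had 8 promoters, and 3 of the 8 held one, in 3 genes. *Kcnip1*, *Kcnc2* and *Kcnj3* had no match in these windows. A match is a description of letters and not a binding site. Below are a pair of promoters from genes higher in high nuclei, *Kcnj6* (chr16:94997697-94997946, minus strand) and *Kcnip4* (chr5:48599683-48599932, minus strand), and a pair from genes higher in low nuclei, *Kcnd2* (chr6:21215096-21215345, plus strand) and *Kcnc1* (chr7:46396218-46396467, plus strand), shown because matches lay on both sides, 5′ to 3′ with the matched bases in capitals.
Kcnj6: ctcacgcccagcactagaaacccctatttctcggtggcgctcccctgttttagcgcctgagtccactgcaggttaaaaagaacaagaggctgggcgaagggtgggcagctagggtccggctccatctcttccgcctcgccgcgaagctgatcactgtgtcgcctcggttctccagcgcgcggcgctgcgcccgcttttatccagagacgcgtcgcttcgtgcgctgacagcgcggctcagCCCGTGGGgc
Kcnip4: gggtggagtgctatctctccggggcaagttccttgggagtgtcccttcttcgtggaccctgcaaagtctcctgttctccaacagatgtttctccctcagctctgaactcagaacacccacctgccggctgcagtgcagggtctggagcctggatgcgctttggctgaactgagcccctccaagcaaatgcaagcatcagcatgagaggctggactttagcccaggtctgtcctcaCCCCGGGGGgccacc
Kcnd2: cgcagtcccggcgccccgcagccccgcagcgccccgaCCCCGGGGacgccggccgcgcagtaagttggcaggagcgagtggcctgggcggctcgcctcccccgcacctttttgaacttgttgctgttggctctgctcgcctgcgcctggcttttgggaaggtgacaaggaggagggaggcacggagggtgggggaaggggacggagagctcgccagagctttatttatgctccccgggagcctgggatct
Kcnc1: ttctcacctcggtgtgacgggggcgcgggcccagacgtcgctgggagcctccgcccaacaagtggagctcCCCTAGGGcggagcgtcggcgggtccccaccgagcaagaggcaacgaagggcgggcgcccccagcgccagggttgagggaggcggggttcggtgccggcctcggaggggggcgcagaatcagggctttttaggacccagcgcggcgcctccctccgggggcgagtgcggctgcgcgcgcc

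PNs and interneurons of the AON library were compared next. Of 49 genes with 20 or more UMIs, 27 (55.1%) were at least 2-fold higher in GABAergic nuclei, against 16.1% of all 9801 genes, and 8 (16.3%) were at least 2-fold higher in PNs, against 15.2% of all genes. The other 14 were under 2-fold. The median log2 ratio of PNs over GABAergic nuclei was −1.42 for the 49 genes and −0.06 for all genes. The AON PNs are the same nuclei as in the comparison with the pPCx library.

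*Kcnq5*, a subunit of the M-type potassium channels, was the most unequal. It had 25 UMIs in AON PNs and 2589 in GABAergic nuclei, or 22.4 and 2037 CPM, 91.0-fold higher (61.5 to 141) in GABAergic nuclei. Single GABAergic nuclei ran from 0 through a median of 1566 to 6364 CPM, against a median of 0 and a highest value of 93.8 CPM in PNs. The pPCx PNs were also low, at 42.5 CPM, and the 2 pPCx GABAergic nuclei together had 155 UMIs, 2598 CPM. Its family member *Kcnq3* was at 436 CPM in PNs and 381 CPM in GABAergic nuclei, but its log2 ratio of 0.19 was −1.10 without nuclei over 3 times the median depth, where its direction turned.

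The Kv2.2 gene was also higher in GABAergic nuclei. *Kcnb2* had 551 UMIs in PNs and 7092 in GABAergic nuclei, or 493 and 5579 CPM, 11.3-fold higher (10.4 to 12.4), with median nuclei at 130 and 5436 CPM. In the pPCx library it stood at 298 CPM in PNs and 2028 CPM (121 UMIs) in the 2 GABAergic nuclei. Of the silent subunits that join Kv2 channels, *Kcnf1* (2 and 40 UMIs) and *Kcnv1* (4 and 21 UMIs) were both higher in GABAergic nuclei, by 17.6-fold (4.56 to 150) and 4.62-fold (1.56 to 18.5). They passed both UMI minima through the GABAergic nuclei only.

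Of the 7 Eag, Erg and Elk genes compared, the *Kcnh* family, 6 were at least 2-fold higher in GABAergic nuclei, against 16.1% of all genes. *Kcnh1* had 5 and 256 UMIs, 45.0-fold higher (19.0 to 140), and *Kcnh3* (Elk2) 3 and 132, 38.7-fold higher (12.9 to 190). *Kcnh7* had 417 and 2393 UMIs, 5.04-fold higher (4.54 to 5.61), and *Kcnh5* (Eag2) 181 and 553, 2.69-fold higher (2.27 to 3.19). The *Kcnh5* log2 ratio of −1.42 was −0.12 with equal weight per nucleus, while those of *Kcnh1* and *Kcnh7* stayed past 2-fold under each alternative. *Kcnh4* had 0 and 21 UMIs, at least 6.15-fold, and passed both UMI minima through the GABAergic nuclei only. *Kcnh2*, the gene of Erg1, was the member under 2-fold, on 16 and 12 UMIs.

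Two-pore channels showed the same leaning, with 5 of 7 at least 2-fold higher in GABAergic nuclei, against 16.1% of all genes. *Kcnk13* (THIK-1) had 4 and 221 UMIs, 48.6-fold (18.7 to 180), *Kcnk10* (TREK-2) 20 and 229, 10.1-fold (6.37 to 16.8), and *Kcnk12* (THIK-2) 6 and 96, 14.1-fold (6.23 to 39.3). *Kcnk1* and *Kcnk3* rested on 2 and 1 PN UMIs. *Kcnk2*, however, was 11.2-fold higher (5.43 to 26.9) in PNs, at 79 against 8 UMIs. The TREK genes *Kcnk2* and *Kcnk10* therefore lay on opposite sides.

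The A-type and Kv3 groups were divided as well. *Kcnd2* had 2643 UMIs in PNs and 6004 in GABAergic nuclei, which lay at the edge of 2-fold and counted as under it. *Kcnd3* was 2.75-fold higher (2.29 to 3.30) in GABAergic nuclei. Its KChIP partners separated: *Kcnip1* had 90 and 599 UMIs, 5.85-fold higher (4.68 to 7.39) in GABAergic nuclei, whereas *Kcnip4* had 5457 and 1032 UMIs, 6.02-fold higher (5.63 to 6.44) in PNs, and *Kcnip3* 163 and 25 UMIs, 7.42-fold higher (4.85 to 11.8) in PNs. *Kcnip2*, on 13 and 37 UMIs, was 2.50-fold higher (1.30 to 5.13) in GABAergic nuclei, where 54.1% of its UMIs were in 1 nucleus. In the Kv3 family, *Kcnc1* was higher in PNs by 3.37-fold (2.67 to 4.27), and *Kcnc2* was higher in GABAergic nuclei by 3.12-fold (2.70 to 3.61).

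Kv1 genes split between the classes. *Kcna2* had 192 UMIs in 18 of 25 PNs and 17 UMIs in 9 of 47 GABAergic nuclei, 12.8-fold higher (7.82 to 22.5) in PNs, and was the gene most in favour of PNs. *Kcna1* (Kv1.1) and *Kcna4* (Kv1.4) were higher in GABAergic nuclei, by 17.9-fold (5.83 to 89.1) and 2.78-fold (1.90 to 4.17). *Kcna1* had 3 UMIs in AON PNs and 0 in pPCx PNs. *Kcnab1*, which encodes a β subunit that speeds inactivation of Kv1 channels, was 2.59-fold higher (1.80 to 3.77) in PNs, with a log2 ratio of 0.48 in place of 1.36 when nuclei had equal weight.

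Among the remaining families, *Kcnn3* (SK3) was 9.28-fold higher (5.20 to 18.0) in PNs, at 94.9 and 10.2 CPM, while *Kcnn2* was under 2-fold by summed UMIs, at a log2 ratio of −0.71 that was −1.21 without nuclei over 3 times the median depth and 0.31 with equal weight per nucleus. *Kcnt2*, the sodium-activated channel Slick, had 9 and 108 UMIs, 10.5-fold higher (5.36 to 23.7) in GABAergic nuclei. One nucleus held 52.8% of the 108, and the log2 ratio of −3.33 was −1.36 with equal weight per nucleus. The BK pore gene *Kcnma1* was 1.41-fold higher (1.32 to 1.51) in PNs. Its β subunit genes *Kcnmb4* and *Kcnmb2* were higher in GABAergic nuclei, by 8.94-fold (3.88 to 25.3) and 10.5-fold (3.33 to 53.5). The 36 *Kcnmb2* UMIs there lay in 6 of 47 nuclei, 50% of them in 1. *Kcnj6* was 5.53-fold higher (4.31 to 7.19) in GABAergic nuclei, at 356 CPM, and *Kcnj4* 2.99-fold (1.65 to 5.72), while *Kcnj3* was 1.44-fold higher (1.33 to 1.55) there, with UMIs in 47 of 47 GABAergic nuclei. The *Kcnj3* log2 ratio of −0.52 turned to 0.73 with equal weight per nucleus. Of 19 partner genes compared, 3 (15.8%, against 15.2% of all genes) were past 2-fold towards PNs (*Cntnap2*, *Rgs7* and *Lrrc55*). Another 5 (26.3%, against 16.1% of all genes) were past it towards GABAergic nuclei (*Dpp6*, *Lgi1*, *Gabbr2*, *Gnb5* and *Jph4*). *Dpp6*, an auxiliary subunit of Kv4 channels, had 1121 and 7617 UMIs, 5.97-fold higher (5.61 to 6.37).

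**Figure D4:**
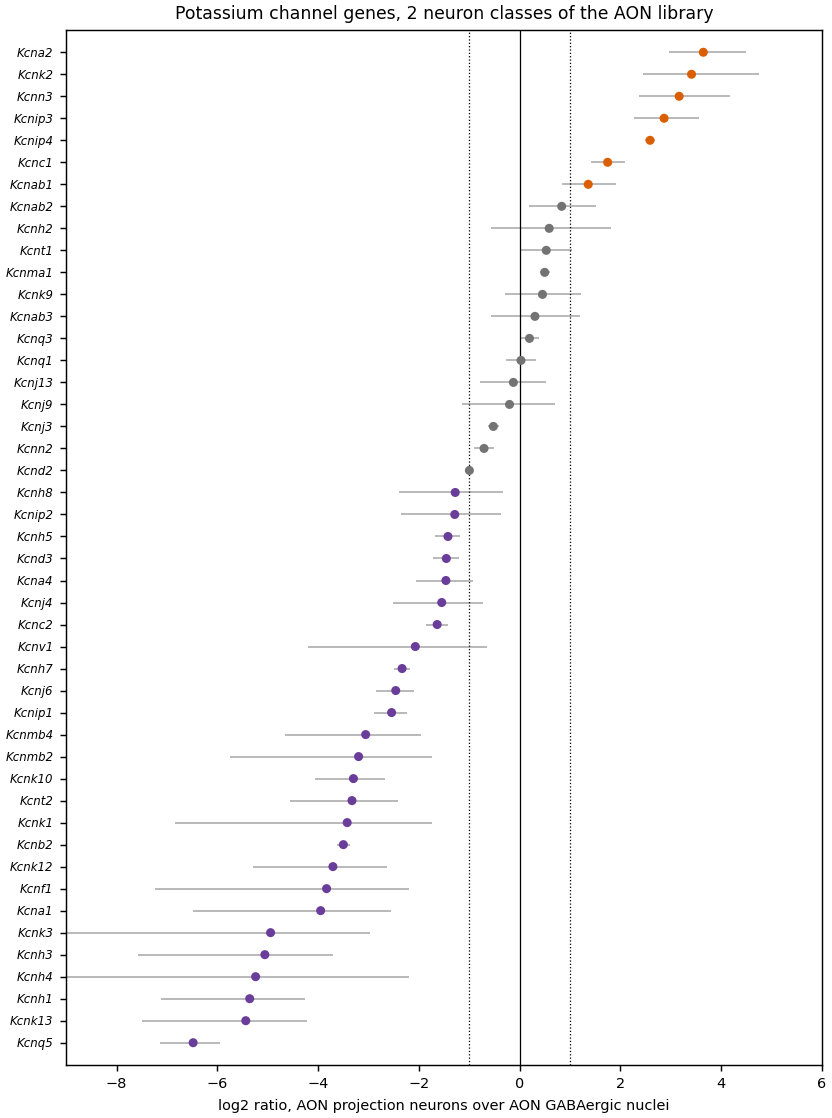
Log2 ratio of AON projection neurons over AON GABAergic nuclei for 46 of the 49 potassium channel genes compared (points) with exact 95% counting intervals (grey lines, which run to the left edge for *Kcnh4*, whose lower bound is 0, and for *Kcnk3*, whose bound lies beyond the axis). Orange genes are at least 2-fold higher in projection neurons, purple genes in GABAergic nuclei, and the dotted lines mark 2-fold. The genes run from *Kcna2* at 3.65 to *Kcnq5* at −6.48, and 26 of those drawn lie past 2-fold towards GABAergic nuclei and 7 towards projection neurons.

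The remaining AON nuclei were poor in most potassium channel genes but rich in a few. Against the AON neurons (PNs and GABAergic nuclei summed), 53 genes had enough UMIs. Of these, 36 (67.9%) were at least 2-fold higher in neurons, against 19.5% of all 10841 genes, and 8 (15.1%) were at least 2-fold higher in the remaining nuclei, against 19.3% of all genes. The median log2 ratio of remaining over neuronal nuclei was −1.70 for the 53 genes and 0.10 for all genes.

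*Kcnj10* encodes Kir4.1, the inward rectifier by which astrocytes and oligodendrocytes take up potassium, and *Kcnj16* encodes its partner Kir5.1. *Kcnj10* had 60 UMIs in 21 of 30 remaining nuclei and 6 UMIs in 72 neurons, or 125 and 2.51 CPM, 49.8-fold higher (21.6 to 141). *Kcnj16* had 16 UMIs in 4 remaining nuclei and 5 in neurons, 15.9-fold higher (5.58 to 55.6), and no UMI in the 59 pPCx PNs, which allows a share of nuclei with a UMI of up to 5.08%. Both genes lay in the class with the glial markers. They passed both UMI minima through that class only, so these differences are a description. Neither is among the 49 genes with 10 UMIs in each library. Expected shares after thinning to 3000 UMIs were 29.7% of remaining nuclei and 0.339% of GABAergic nuclei for *Kcnj10*.

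*Kcnk2* had 137 UMIs in 18 of 30 remaining nuclei, 286 CPM, and was 7.84-fold higher (5.95 to 10.4) than in neurons. *Kcnmb2*, which encodes a BK β subunit, had 91 and 39 UMIs, 11.6-fold higher (7.90 to 17.4), with 50.5% of the 91 in 1 nucleus. *Kcna6* had 31 and 13 UMIs, 11.9-fold higher (6.04 to 24.7), with 51.6% in the deepest nucleus. *Kcnn3*, at 169 CPM, was 3.39-fold higher (2.52 to 4.53) than in neurons, and *Kcnip3*, at 163 CPM, 2.07-fold higher (1.57 to 2.70). Most of the *Kcnip3* and *Kcnn3* UMIs of neurons lay in PNs. *Kcnu1* had 6 and 15 UMIs, and its interval included no difference.

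Neuron-higher genes covered every family. *Kcnb2* had 48 UMIs in the remaining nuclei and 7643 in neurons, 32.0-fold higher (24.1 to 43.4) in neurons, *Kcnh7* was 11.3-fold higher (8.54 to 15.2), *Kcnd2* 7.30-fold (6.41 to 8.34) and *Kcnma1* 7.03-fold (5.78 to 8.64). *Kcnip4* was 5.52-fold higher (4.85 to 6.32) in neurons, with a log2 ratio of −2.46 that was −0.48 when barcodes below the gene filter were let in. *Kcnq3* and *Kcnd3*, in contrast, differed by 1.05-fold and 1.03-fold between remaining and neuronal nuclei, within counting error. *Kcnv1*, *Kcnf1* and *Kcnab3* had no UMI in the remaining nuclei. Of 19 partner genes compared, none was past 2-fold towards the remaining nuclei, where 19.3% of all genes were. Towards neurons 12 (63.2%) were past it, against 19.5% of all genes.

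**Figure D5:**
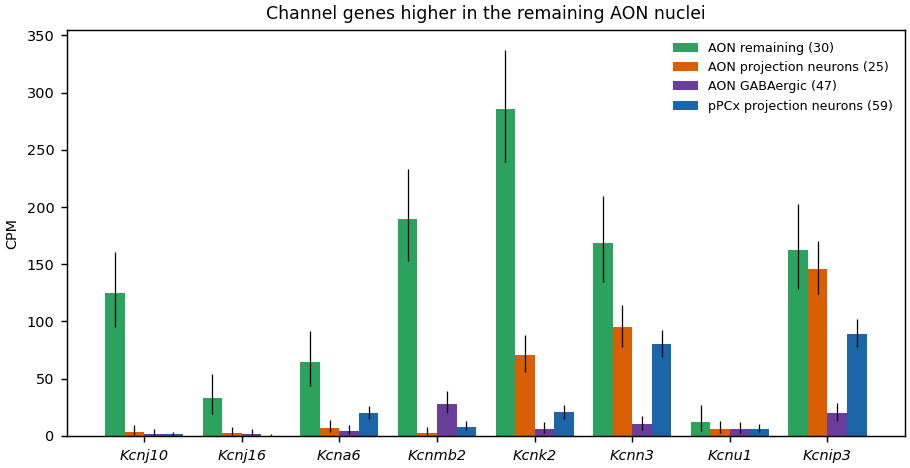
CPM of the 8 potassium channel genes at least 2-fold higher in the remaining AON nuclei than in AON neurons (bars, from 0, with exact 95% Poisson intervals), in 4 classes with the number of nuclei in brackets. *Kcnj10* stands at 125 CPM in the remaining nuclei and at or under 3.58 CPM in the neuron classes, while *Kcnip3* at 163 CPM is close to AON projection neurons at 146 CPM.

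Among the genes below the minimum of 10 UMIs were *Kcne4*, *Kcns1*, *Kcnmb3*, *Kcna3*, *Kcna10*, *Kcna5*, *Kcnj8*, *Kcnn4*, *Kcnk6*, *Kcna7*, *Kcnj14*, *Kcne3*, *Kcng4*, *Kcnk5*, *Kcnk16*, *Kcnj5*, *Kcnj1*, *Kcnmb1*, *Kcne2*, *Kcne1*, *Kcnj15*, *Kcnk7*, *Kcnv2* and *Kcnk18*. All of the matching *Kcne* genes, β subunits of Kv7 and other channels, were among them. These genes were not detectable at a level that could be compared at this depth. Of the others, 21 had under 20 UMIs in PNs and were not compared between the libraries, among them *Kcnj2*, with 11 UMIs in AON and 2 in pPCx PNs.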

How the data were processed

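Single-nucleus RNA-seq was available for 2 libraries of olfactory bulb nuclei, AON and pPCx. The deposited values are raw UMI counts per gene and barcode, made by the authors with Cell Ranger (matrix header 3.1.0). This tool maps reads to annotated genes and collapses those with the same UMI. The genome build of these libraries and the strand setting are not given in the sources used here. All 92 matching gene IDs were found in GENCODE M21 (GRCm38), whose coordinates are used. Reads of overlapping genes may be divided uncertainly: 15 of the genes overlap a gene on the other strand and 3 one on the same strand. The 3 are *Kcnk2*, *Kcnip4* and *Kcnk4*.

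A barcode was kept if it had 1000 or more genes and no more than 5% of its UMIs from mitochondria, as in the study's methods, and the mitochondrial limit removed none. No doublet caller was run, since the nuclei are too few. Filtered nuclei held 2868398 UMIs in the AON and 2401385 in the pPCx library. UMIs were summed per class and library and scaled to CPM with exact Poisson intervals. Log2 ratios used 0.5 UMI added to each sum, and ratio intervals are exact conditional (Clopper-Pearson) intervals, at 95% and for counting error only. Genes with 20 or more UMIs in both classes together were compared, and a log2 ratio of 1 or more in size counted as at least 2-fold. A gene low in 1 class could pass the minimum of 20 UMIs through the other class alone, so such differences are descriptions. A fold against 0 UMIs is a bound against 3 UMIs over the class. Shares of nuclei were also given after thinning to 3000 UMIs (the hypergeometric expectation). No p-value is given, since each group has 1 library. Python 3.11.15, numpy 2.4.6, scipy 1.17.1 and pandas 2.3.3 were used.

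The genes, classes, partner and marker lists were chosen with earlier results of these data known. Genes named with values were those at least 2-fold apart whose interval left out no difference, up to 10 per direction and ranked by the interval bound nearest to 1, and a fixed list of *Kcng1*, Kv, GIRK, BK, SK and two-pore genes. Others are named because their counts fell to a few, after their values were seen. Alternatives (equal weight per nucleus, other minima, added UMIs, filters, marker rules and limits) are given in the closing section. Some genes of the set enter the counts and are not reported here by name.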

Additional observations from a re-analysis of the deposited data

Results flagged for a closer look

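Barcodes below the filter of 1000 genes, which no comparison used, carried potassium channel transcripts. The 86 AON barcodes below it held 1651 UMIs of these genes, 17440 CPM, against 14009 CPM in AON PNs. *Kcnip4* gave 963 of them, in 37 barcodes, or 10173 CPM (9540 to 10836) against 4883 CPM in AON PNs, and 1 barcode held 26.8%. *Kcng1*, with no UMI in filtered AON nuclei, had 3 UMIs there, all in 1 barcode. The 11 pPCx barcodes below the filter held 89 UMIs of these genes, 8332 CPM, against 8701 CPM in pPCx PNs.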

How the results depend on the processing

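No paired analysis was possible because the groups hold a single library each, so no library could be left out either. The counts of genes past 2-fold moved by over 1.5 times under these alternatives. With no minimum of UMIs, 20 of 67 genes were higher in AON and 11 in pPCx PNs, against 16.5% and 16.8% of all genes. Between PNs and GABAergic nuclei, 13 of 66 were higher in PNs, against 23.3% of all genes. Within pPCx PNs, 14 and 14 of 64 were higher in *Ebf1*/*Cntn6*-high and low nuclei, against 22.4% and 14.2%. With 50 or more UMIs, 4 of 34 were higher in pPCx than AON PNs, against 6.84% of all genes. Of 43 compared, 5 were higher in the remaining nuclei than in neurons, against 16.7%. Of 29 compared, 4 were higher in high pPCx PNs, against 7.13%. With 5 UMIs added, 3 of 46 were higher in pPCx PNs, against 4.02% of all genes, and 22 of 53 in neurons than in the remaining nuclei, against 9.47%. Among nuclei under 1000 CPM of *Ebf1* and *Cntn6*, 4 of 38 were higher in pPCx PNs, against 5.59%. With equal weight per nucleus, *Kcna6* turned direction between AON and pPCx PNs, at a log2 ratio of 0.10. The causes were not tested. Of 867 single-gene values under the alternatives, 749 moved by less than their counting interval, 117 moved further and 1, *Kcna6*, turned from past 2-fold. Genes under 2-fold as reported also turned sign, in 25 values, such as *Kcnj3*, *Kcnn2*, *Kcnk9* and *Kcnq3* between PNs and GABAergic nuclei and *Kcnt2* and *Kcnh5* between AON and pPCx PNs. Genes reported as under 2-fold went past it in 21 values. The depth of 25 AON PNs, with 24.6% of UMIs in 1 nucleus, limits genes under 20 UMIs.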
